A study of Rattus norvegicus with 18 samples.

Results

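The genes described here are those of sterol and fatty acid synthesis. There were 34 on the list, enzymes and regulators named by symbol, and 33 of them had a probe set on the array, out of 14217 named genes in all. Hmgcs1, which makes HMG-CoA, was not analysed here because no probe set carried its symbol. The 33 measured genes fell into a sterol arm of 18, 5 regulators of the SREBP transcription factors, and a fatty acid arm of 10. They had 53 probe sets between them, 17 genes having more than 1, and the brightest 1 by mean of all arrays stood for the gene. For none of the 33 was the mean intensity below the median of the table, 746.4.

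RNA of rat spinal cord origin was measured on 18 single-channel Affymetrix arrays in 3 groups of 6. The first group is described only as control. In the second group bone morphogenetic protein (BMP) had been added at 10 ng/mL, and in the third ciliary neurotrophic factor (CNTF) at 10 ng/mL, both with a time of 4 d. All 18 descriptions also begin with "14 NT", which was not interpreted, and the control description gives no time, so it is not known whether controls were taken with the treated material. Which BMP was used is not stated, nor are the cell type, the culture, the strain or the age, and nothing says that arrays of a group came from separate animals or cultures. The p-values therefore describe array-to-array spread, which may be technical. The titles number the arrays of each group 1 to 6, and single arrays are called by group and title number.

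Cholesterol is built from acetyl-CoA by way of mevalonate, the isoprenoid farnesyl pyrophosphate, squalene and lanosterol, whereas fatty acids are built from acetyl-CoA and malonyl-CoA and are then elongated and desaturated. Most of these enzymes are switched on by SREBP transcription factors, which the escort protein Scap carries from the endoplasmic reticulum when sterol is low and which Insig proteins hold back when sterol is high. In spinal cord these pathways supply all cells, and oligodendrocytes draw on them heavily for myelin, a membrane rich in cholesterol and very long chain lipids.

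Of all 31042 probe sets tested, 6.01% were called in BMP against control and 2.32% in CNTF against control, a call being a limma adjusted p under 0.05. Shares of probe sets given below are of all of them, dim ones included. Of the 15813 with a mean at or above the table's median, 4.44% were called lower with BMP and 1.21% with CNTF. Among these 15813, 2125 were lower than control in all 6 same-numbered pairs with BMP and 1780 with CNTF. Differences below are differences of group means of log2(intensity + 116.655), with limma's standard error after ±, and their median over all probe sets was 0.01 for BMP and -0.01 for CNTF. Intensities are linear, and 3 values for a group are its lowest, median and highest of 6 arrays. As a check on the tissue label, most markers of oligodendrocytes, their precursors, astrocytes and neurons had means above the median of the table in controls, but all 10 microglial and all 7 endothelial markers had means below the median of the table in every group. No marker was at 0. In such bulk RNA, fewer cells of a type and less RNA per cell cannot be told apart.

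With BMP, the sterol arm fell almost as a whole. Of its 18 genes, 17 fell and 0 rose, while 2.57% of all probe sets were called lower. The median difference was -0.93, with single genes between -1.40 and -0.16. In 15 of the 18 genes every BMP array was below every control array, which held for 1.19% of all probe sets. Likewise 15 were lower with BMP in all 6 same-numbered pairs, against 8.37% of all probe sets. The exception to the fall was Ebp, the sterol isomerase that moves the ring double bond, at -0.16 ± 0.20 (limma adjusted p = 0.747).

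The first steps make the isoprenoid precursors. Mvd, mevalonate diphosphate decarboxylase, had control intensities of 3251, 4164 and 4427 and BMP intensities of 1408, 1698 and 3027. The groups did not overlap, and Mvd fell by 1.07 ± 0.17, or 2.11-fold (limma adjusted p = 0.00123). Fdps makes farnesyl pyrophosphate, from which squalene and the isoprenoid anchors of proteins branch off. Its intensities were 35760, 43783 and 47542 in controls and 18286, 25740.1 and 30152 with BMP. Again all BMP arrays were the lower ones, by 0.75 ± 0.13 (limma adjusted p = 0.00148). Pmvk, phosphomevalonate kinase, fell less, from 4228, 4801 and 5847 to 2235, 3198 and 4000.5 without overlap (-0.60 ± 0.13, limma adjusted p = 0.00908). Idi1, the isopentenyl diphosphate isomerase, and Acat2, the thiolase that joins acetyl-CoA units, were 2.08-fold and 2.01-fold lower, and neither overlapped with its controls. Mvk, mevalonate kinase, ran at 3329, 5128 and 5691 in controls and at 1928, 2593 and 4654.5 with BMP. Its groups overlapped, BMP array 6 being the highest of its group, and its fall of 0.71 ± 0.20 was close to the threshold (limma adjusted p = 0.0362). A second Mvk probe set fell by 0.72 and the third differed by 0.12 (limma adjusted p = 0.0329 and 0.851).

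Squalene is then formed, oxidised and closed into lanosterol. Lss, the synthase that closes the rings, had the smallest adjusted p of the sterol arm. It read 7773, 11753 and 13302 in controls and 3786, 4879 and 7706 with BMP. The highest BMP array, number 6, stayed just under the lowest control array, number 4, and Lss fell by 1.11 ± 0.18, or 2.16-fold (limma adjusted p = 0.00114). Fdft1, squalene synthase, and Sqle, the epoxidase that commits squalene to sterols, fell by 0.96 ± 0.17 and 0.66 ± 0.12 (limma adjusted p = 0.00178 and 0.00284).

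Lanosterol is trimmed to cholesterol by demethylases, reductases and isomerases. Msmo1, the C4-methyl sterol oxidase, had intensities of 24735, 31344 and 33992 in controls and of 11088, 15824 and 23481 with BMP. Nsdhl, which works in the same demethylation complex, had 7156, 9966 and 13046 in controls and 3901, 5116 and 6959 with BMP. In both genes the groups were apart, with falls of 0.95 ± 0.15 for Msmo1 and 0.90 ± 0.15 for Nsdhl (limma adjusted p = 0.00123 and 0.00142). Hsd17b7, a ketosteroid reductase, and Dhcr7, which carries out the last reduction to cholesterol, differed by -1.01 ± 0.18 and -0.99 ± 0.18. Cyp51, the lanosterol demethylase, and Sc5d, the desaturase, differed by -0.68 ± 0.12 and -0.67 ± 0.13. Tm7sf2, a sterol reductase, was the weakest call (-0.59 ± 0.17, limma adjusted p = 0.042) and was not lower in every pair. A second Hsd17b7 probe set differed by -0.42 (limma adjusted p = 0.186).

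Stard4, a carrier that moves cholesterol between membranes, showed the largest difference of the sterol arm. Control arrays read 3117, 4122 and 5146, and BMP arrays read 595, 1609.9 and 2449. Even the highest BMP array lay below the lowest control, and Stard4 fell by 1.40 ± 0.27, or 2.65-fold (limma adjusted p = 0.00364). Of its other probe sets, 1 fell by 0.96 and the other differed by -0.05 (limma adjusted p = 0.0106 and 0.926). Calls of the brightest probe set and of all others agreed in 14 of the 17 genes with several probe sets, and the 3 exceptions were Mvk, Hsd17b7 and Stard4.

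**Figure D1:**
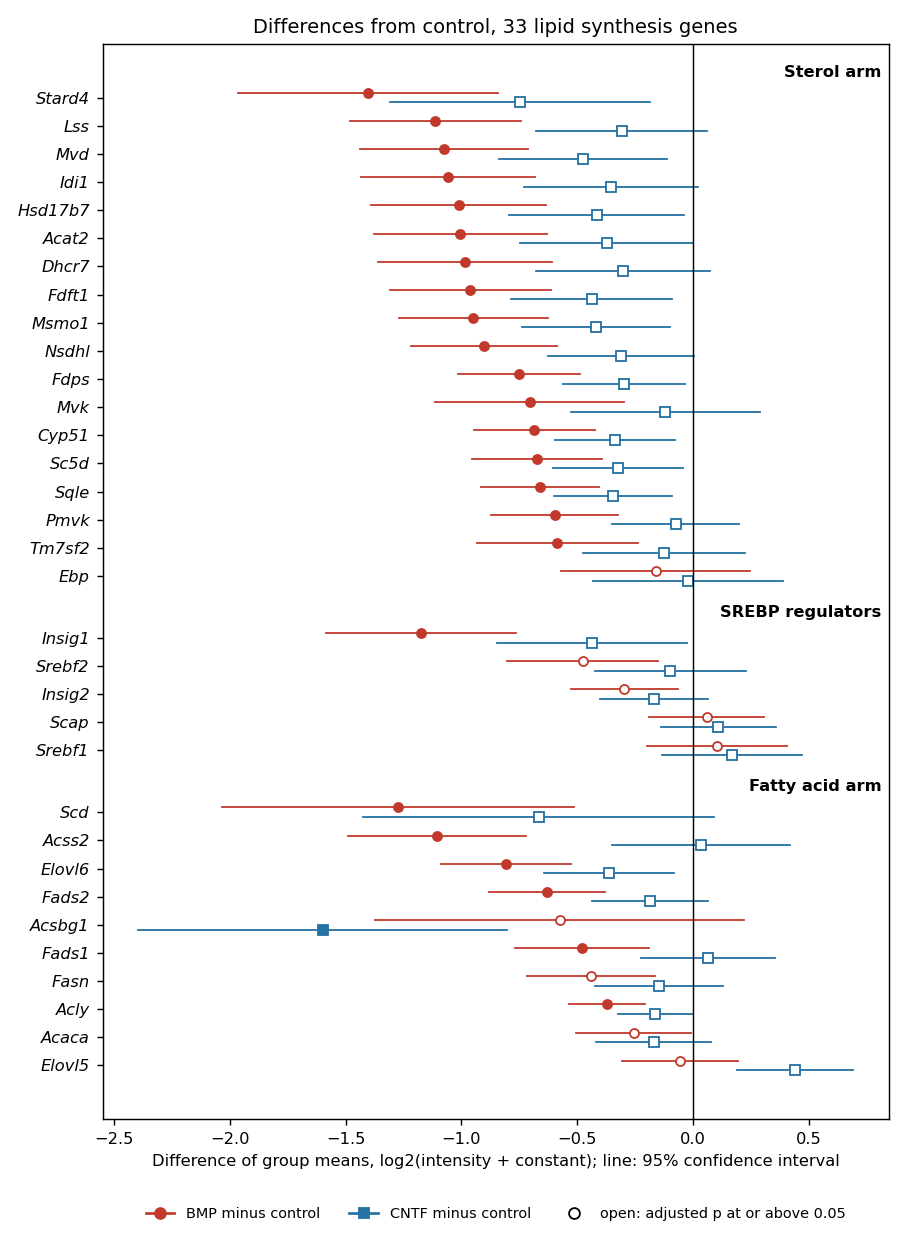
Differences from control of the 33 measured genes on the log2(intensity + constant) scale (x axis), by arm, with 95% confidence intervals; red circles are BMP, blue squares CNTF, and filled symbols passed an adjusted p of 0.05. The 17 filled red circles of the sterol arm lie between -1.40 and -0.59, whereas no CNTF symbol of that arm is filled.

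Promoters of the listed genes were read from the RefSeq promoter table of the build GRCr8, 250 bases upstream of the gene start. Of the 33 genes 26 had a window, among them 14 of the sterol arm. Pmvk, Fdft1, Sqle, Stard4, Acaca, Fasn and Elovl6 had none in the table. NF-Y and Sp1 are general activators known to work beside SREBP at such promoters. The NF-Y box CCAAT, searched on both strands, was present in 11 of 14 sterol arm windows, in 4 of 5 regulators and in 5 of 7 windows of the fatty acid arm, against 34% of all 33469 windows and 34.6% of the 13193 windows of genes named on the array. At least 2 boxes were found in 7 of the 14 sterol windows and in 11.2% of the windows of named genes. The Sp1 box GGGCGG was in 12 of 14 sterol windows and in 52.4% of windows of named genes. The E-box CACGTG was in 1 of 14 and in 7.59%. The sterol regulatory element, searched as TCACNCCAC, was in 0 of the 27 windows of the 26 genes and in 0.974% of all windows. The 0 says only that these letters were not in these windows. Srebf1 had more than 1 window. A listed gene was counted once if any window of it matched, while shares of all windows and of named genes count single windows. No base of an NF-Y box was shared with another of these motifs. A match is a description of letters and not a measured binding site. The sequences below, 5′ to 3′ along the gene's strand with NF-Y boxes in capitals (CCAAT, or ATTGG where the box is on the opposite strand), show Lss, Msmo1 and Nsdhl as sterol genes that fell with 1, 3 and 5 boxes, Insig1 as the regulator that fell, and Ebp as the sterol gene without a call although its window holds 2 boxes. They lie at chr20:12118231-12118480 (minus strand) for Lss, chr16:29746863-29747112 (plus) for Msmo1, chrX:155817110-155817359 (plus) for Nsdhl, chr4:8057770-8058019 (minus) for Insig1 and chrX:16971212-16971461 (plus) for Ebp.
Lss: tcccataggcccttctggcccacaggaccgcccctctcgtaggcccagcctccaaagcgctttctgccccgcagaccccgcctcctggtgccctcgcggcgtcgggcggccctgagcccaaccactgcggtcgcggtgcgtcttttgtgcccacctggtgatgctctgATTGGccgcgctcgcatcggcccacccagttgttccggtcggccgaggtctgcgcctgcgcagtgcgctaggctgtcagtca
Msmo1: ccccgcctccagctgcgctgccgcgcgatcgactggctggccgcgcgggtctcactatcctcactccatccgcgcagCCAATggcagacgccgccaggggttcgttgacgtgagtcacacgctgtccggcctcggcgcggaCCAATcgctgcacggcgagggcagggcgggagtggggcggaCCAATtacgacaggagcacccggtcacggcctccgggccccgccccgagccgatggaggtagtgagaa
Nsdhl: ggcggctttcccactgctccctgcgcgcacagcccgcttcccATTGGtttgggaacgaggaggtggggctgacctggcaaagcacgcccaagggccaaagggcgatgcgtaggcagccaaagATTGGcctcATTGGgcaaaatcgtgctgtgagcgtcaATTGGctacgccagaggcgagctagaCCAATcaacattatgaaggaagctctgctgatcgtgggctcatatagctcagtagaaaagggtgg
Insig1: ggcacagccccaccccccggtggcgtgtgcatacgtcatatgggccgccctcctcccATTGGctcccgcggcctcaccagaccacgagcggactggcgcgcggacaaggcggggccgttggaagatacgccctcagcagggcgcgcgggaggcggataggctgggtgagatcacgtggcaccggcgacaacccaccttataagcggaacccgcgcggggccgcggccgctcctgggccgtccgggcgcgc
Ebp: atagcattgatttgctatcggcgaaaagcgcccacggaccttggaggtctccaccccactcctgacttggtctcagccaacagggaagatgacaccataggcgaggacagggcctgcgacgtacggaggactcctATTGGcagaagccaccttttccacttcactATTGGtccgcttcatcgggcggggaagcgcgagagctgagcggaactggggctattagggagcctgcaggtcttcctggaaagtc

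Among the 5 SREBP regulators, 1 fell with BMP and 0 rose. Insig1, which retains the SREBP complex and is itself a target of SREBP, had control intensities of 18683, 25684 and 26784 and BMP intensities of 5712, 10557 and 16225. All BMP arrays were below all control arrays, and Insig1 fell by 1.18 ± 0.20, or 2.26-fold (limma adjusted p = 0.0014). The related Insig2 read 1965, 2530.2 and 2975 in controls and 1722, 2044 and 2312 with BMP. Its groups overlapped, at a difference of -0.30 ± 0.11 (limma adjusted p = 0.135).

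The transcription factor genes themselves differed less. Srebf2, the factor that chiefly serves the sterol genes, had intensities of 7563, 10306 and 11439 in controls, 4866, 7078 and 9347 with BMP, and 6546, 9263 and 12524 with CNTF. It was lower with BMP in all 6 pairs although the groups overlapped, and its difference of -0.48 ± 0.16 did not pass (limma adjusted p = 0.0777). Srebf1, the factor tied chiefly to fatty acid genes, had 7464, 10004 and 13239 in controls and 7966, 10155 and 14561 with BMP, a difference of 0.10 ± 0.14 (limma adjusted p = 0.792). Scap, the escort protein, had 4273, 6339 and 7759 in controls and 6082, 6388 and 7021 with BMP, a difference of 0.06 ± 0.12 (limma adjusted p = 0.864). Controls spanned the whole range of the BMP arrays for Scap, and 3 of 6 pairs were higher. The 95% intervals of the BMP difference ran from -0.20 to 0.40 for Srebf1 and from -0.19 to 0.31 for Scap.

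Arrays of the same title number deviated together, so the fit was repeated with the number as a block. It called 16.7% of all probe sets in BMP against control, 7.58% as lower. In that fit 3 regulators fell with BMP, Srebf2 (limma adjusted p = 3.6e-05) and Insig2 (0.0384) joining Insig1. In the fatty acid arm Acaca and Fasn were added, which made 8 of 10. The 17 sterol calls were the same genes.

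In the fatty acid arm 6 of 10 genes fell with BMP and 0 rose, with a median difference of -0.53 and a range from -1.27 to -0.06. Those that fell lie at both ends of the pathway. Acss2, which makes acetyl-CoA from acetate, read 6161, 10595 and 13299.5 in controls, 3545, 4247 and 6109 with BMP, and 8009.7, 9432 and 13598 with CNTF. The BMP arrays were the 6 lowest of the 18, and Acss2 fell by 1.11 ± 0.18, or 2.15-fold (limma adjusted p = 0.00139). Acly, which makes cytosolic acetyl-CoA from citrate for both arms, had 36992, 38052 and 43150.3 in controls and 26622, 30503 and 34387 with BMP. Its change was small and even, a fall of 0.37 ± 0.08 without overlap (limma adjusted p = 0.00722).

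The next enzymes, which build the chain, did not pass. Acaca, the carboxylase that makes malonyl-CoA, differed by -0.26 ± 0.12 and Fasn, the synthase, by -0.44 ± 0.13 (limma adjusted p = 0.25 and 0.0525). Both were lower with BMP in 6 of 6 pairs, and both groups overlapped.

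Elongation and desaturation showed the other falls. Elovl6, which lengthens palmitate, had control intensities of 10623, 11304 and 14707 and BMP intensities of 4347, 7314 and 7812. These were apart, with BMP array 3 well below its group (-0.81 ± 0.13, limma adjusted p = 0.0014). Fads2, the delta-6 desaturase of polyunsaturated fatty acids, had 3105, 3419 and 4387 in controls and 1765, 2171 and 2940.1 with BMP, also without overlap (-0.63 ± 0.12, limma adjusted p = 0.00353). Scd, the stearoyl-CoA desaturase that makes oleate, spread most, from 10789.5, 17503 and 23867 in controls to 2211, 9033 and 13245 with BMP. Its groups overlapped, and BMP array 3 was again the lowest. The fall of 1.27 ± 0.36 was near the threshold (limma adjusted p = 0.0418), and the call was lost without BMP array 3. Fads1, the delta-5 desaturase, had 16748, 24059.8 and 25753 in controls and 13618, 15030.4 and 23295 with BMP, with overlap (-0.48 ± 0.14, limma adjusted p = 0.0461). 

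The calls of 4 genes in BMP against control were close to the threshold and were lost when any of several arrays was left out. Leaving out 1 array or 1 title number in turn, 24 fits in all, kept the call in 13 fits for Mvk, 12 for Tm7sf2, 11 for Scd and 8 for Fads1, without a change of direction. All 4 calls were lost without any 1 of control arrays 1, 2, 3 and 6 and BMP arrays 1, 2 and 3. Further single arrays whose absence ended a call were BMP 4 for Mvk, control 4 for Tm7sf2, control 5 and CNTF 6 for Scd, and control 5, BMP 4 and CNTF 2, 4 and 6 for Fads1. The highest limma adjusted p over these fits was 0.206 for Mvk, 0.185 for Tm7sf2, 0.189 for Scd and 0.213 for Fads1. Lss, Mvd, Msmo1, Nsdhl, Fdps, Stard4, Insig1, Acss2 and Elovl6 were called in all 24. The same 4 calls were lost with only the controls and BMP in the fit (limma adjusted p = 0.0724 for Mvk, 0.0575 for Tm7sf2, 0.055 for Scd and 0.0739 for Fads1). Without an intensity trend in the moderation they were lost for Tm7sf2 (0.058), Scd (0.0549) and Fads1 (0.0713). Quantile normalization also ended the call of Fads1 (-0.45, 0.0597), and the mean of its 3 probe sets that of Mvk (-0.44, 0.141).

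**Figure D2:**
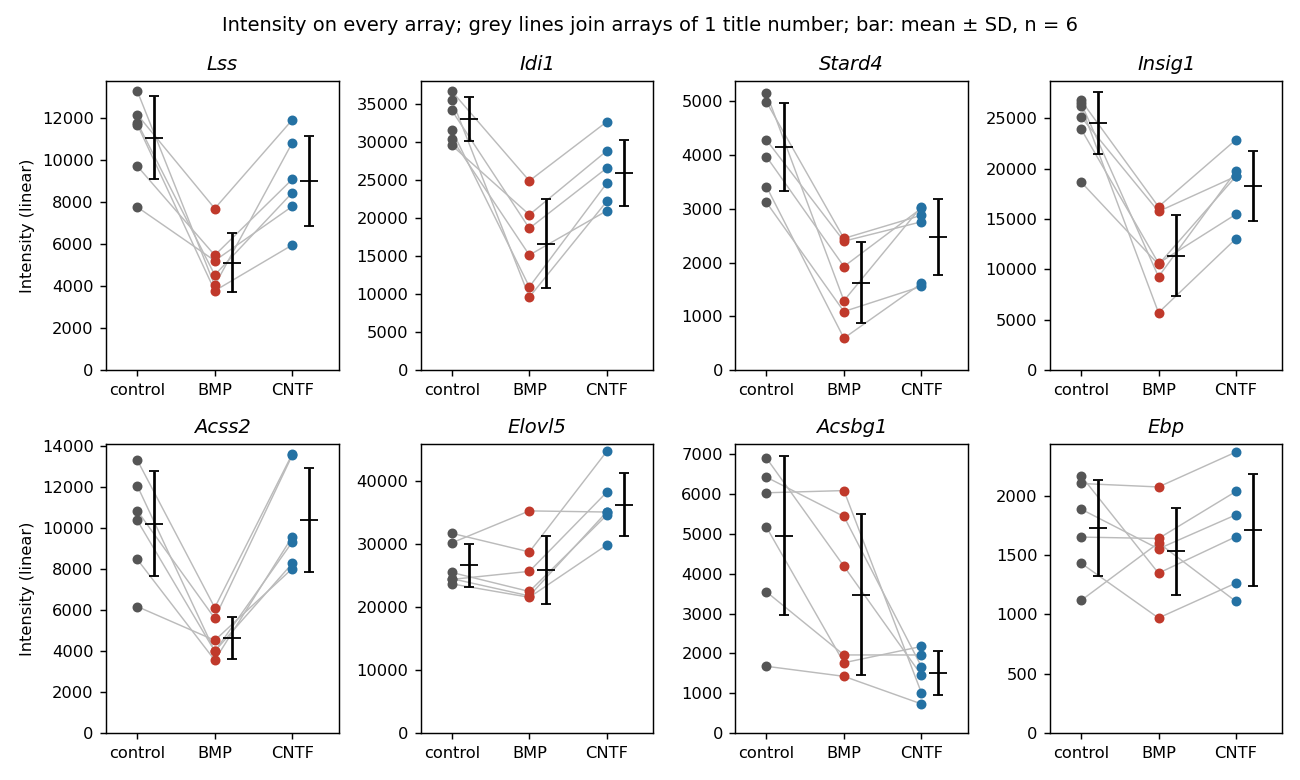
Linear intensity (y axes) on every array in the 3 groups for 8 of the genes, each on its own scale from 0; grey lines join arrays of the same title number, and black bars give the mean ± SD of 6 arrays. The BMP points of Lss, Idi1, Stard4, Insig1 and Acss2 all lie under the control points, the Acsbg1 points of CNTF crowd at the bottom, and the groups of Ebp overlap throughout.

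With CNTF no sterol gene passed the test against control. Of 18, 0 fell and 0 rose by limma, and 0.738% of all probe sets were called lower and 1.58% higher. All 18 differences were nevertheless below 0, with a median of -0.33 and a range from -0.75 to -0.02, and 9 had an unadjusted p under 0.05, all lower, as had 5.4% of all probe sets. In 5 of the 18 the CNTF array was the lower in all 6 pairs, against 7.31% of all probe sets. The most distant was Stard4, at 1557, 2818 and 3039.7 with CNTF, all below the lowest control array, as in 0.696% of all probe sets. Its difference was -0.75 ± 0.27 (limma adjusted p = 0.212). Lss had 5966, 8777 and 11929 with CNTF (-0.31 ± 0.18), Mvd 2026, 2954 and 3984 (-0.47 ± 0.17) and Msmo1 17967, 24753 and 27394 (-0.42 ± 0.15), and each overlapped with its controls. Nsdhl at 6698, 7692 and 10556 and Fdps at 26618, 36946 and 42458 differed by -0.31 ± 0.15 and -0.30 ± 0.13. With the title number as a block, 7.57% of all probe sets were called in CNTF against control, 3.38% as lower. In that fit 5 sterol genes fell, which were Stard4 (limma adjusted p = 0.00971), Sqle (0.00998), Hsd17b7 (0.029), Mvd (0.0297) and Cyp51 (0.0361). A second probe set of Sc5d also fell (-0.49 ± 0.11, limma adjusted p = 0.0149), while the brightest one differed by -0.33 (limma adjusted p = 0.32). BMP and CNTF are compared here with the same 6 control arrays, so a control array that reads high lowers both differences.

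Of the 5 regulators 0 passed with CNTF by limma, and 1, Insig1, had an unadjusted p under 0.05. Insig1 had CNTF intensities of 13056, 19249.9 and 22882 and differed by -0.44 ± 0.20 (limma adjusted p = 0.388). Insig2 at 2024, 2116 and 2522 differed by -0.17 ± 0.11. The CNTF intensities were 10034, 11243 and 12292 for Srebf1 and 5488, 7080.1 and 7464 for Scap, and the differences were 0.17 ± 0.14 and 0.11 ± 0.12. Srebf2 differed by -0.10 ± 0.16.

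In the fatty acid arm 1 of 10 genes passed with CNTF. Acsbg1, an acyl-CoA synthetase that activates long and very long chain fatty acids in brain, had 1674, 5600.4 and 6904 in controls, 1421.5, 3073 and 6088 with BMP, and 729, 1559 and 2172 with CNTF. Control array 1 lay among the CNTF arrays and the other 5 controls above them, and Acsbg1 fell by 1.60 ± 0.38 with CNTF (limma adjusted p = 0.0279). It was lower in 6 of 6 pairs. The call was lost in 12 of the 24 fits that left out an array or a title number, single arrays among them being control 2, 4, 5 and 6 and CNTF 1, 4 and 5, and the highest limma adjusted p was 0.127. With BMP it differed by -0.58 ± 0.38 (limma adjusted p = 0.474).

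Elovl5, the elongase of polyunsaturated fatty acids, was the gene of the list furthest above its controls with CNTF. It read 23662, 24989 and 31701 in controls, 21534, 24060.1 and 35259 with BMP, and 29846.5, 35099.8 and 44718 with CNTF. CNTF arrays were the higher in 6 of 6 pairs, as for 7.18% of all probe sets, although their lowest overlapped with the highest controls. The difference of 0.44 ± 0.12 missed the threshold (limma adjusted p = 0.0614), and it passed as a rise with the number as a block (0.00151) and as the mean of both Elovl5 probe sets (0.0132). The second probe set differed by 0.57 ± 0.16 without overlap (limma adjusted p = 0.0647). In the block fit Acly also fell with CNTF (-0.16, limma adjusted p = 0.0269), so that 3 of 10 fatty acid genes passed there. The other fatty acid genes had CNTF differences from -0.67 for Scd to 0.06 for Fads1.

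The direct comparison of BMP with CNTF is a difference between their own arrays, while the control arrays add to the fit's estimate of the spread. Of all probe sets, 6.23% were called in it, 2.99% as lower and 3.24% as higher with BMP. In the sterol arm 9 of 18 genes were lower with BMP, which were Acat2, Pmvk, Mvd, Idi1, Fdps, Lss, Msmo1, Nsdhl and Dhcr7, and 0 were higher. The median difference was -0.56, and 17 of the 18 were lower with BMP in all 6 pairs, which was so for 8.26% of all probe sets. Lss differed most clearly (-0.81 ± 0.18, limma adjusted p = 0.00835), followed by Pmvk (-0.52 ± 0.13, 0.0196) and Nsdhl (-0.59 ± 0.15, 0.022), and the groups of each overlapped. A second Lss probe set differed by -0.67 and did not pass. For Cyp51 the brightest probe set, at -0.35, did not pass, while a second one, at -0.56, did. Pmvk with CNTF, at 3634, 4809 and 5004, differed from its controls by -0.08 ± 0.13. The count was sensitive to single arrays. It was 1 without CNTF array 6, 2 without BMP array 1 or BMP array 3, 4 without BMP array 2, CNTF array 1 or CNTF array 5, 5 without CNTF array 4 and 12 without BMP array 6. The calls of Mvd and Msmo1 were also lost without any 1 of control arrays 1, 2, 3, 5 and 6. The count was 16 with the number as a block, a fit that called 6.93% of all probe sets lower. It was 5 without an intensity trend in the moderation and 3 with only these 12 arrays in the fit.

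Of the regulators, Insig1 was lower with BMP than with CNTF (-0.74 ± 0.20, limma adjusted p = 0.028), though its call was lost without BMP array 1 or 2, or CNTF array 1, 4, 5 or 6 (highest limma adjusted p = 0.119). With the block Srebf2 was lower too (-0.38, limma adjusted p = 0.000193), which made 2 of 5.

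In the fatty acid arm 4 genes were lower with BMP than with CNTF and 0 were higher. Acss2 was the only one of the 33 genes whose BMP and CNTF arrays were apart, as were those of 1.42% of all probe sets in that direction, and its difference was -1.14 ± 0.18 (limma adjusted p = 0.000821). Elovl5 differed by -0.50 ± 0.12 (limma adjusted p = 0.0158), Fads1 by -0.54 ± 0.14 (0.0227) and Fads2 by -0.44 ± 0.12 (0.0312). Fads1 read 19545, 23992 and 30097 with CNTF and Fads2 read 2599, 3079 and 3429.7. Without BMP array 2, BMP array 3 or CNTF array 5 the count was 2. Acsbg1 was in the opposite direction, 1.02 ± 0.38 higher with BMP, which did not pass (limma adjusted p = 0.135) and passed with the block (0.0156). That fit called 7 of 10, the others being Acly, Acss2, Elovl6, Elovl5, Fads1 and Fads2, all lower, while it called 15.1% of all probe sets.

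The size of the sterol difference varied by title number. The median over the 18 sterol genes of the BMP minus control difference was -1.20, -0.97 and -1.51 for numbers 1, 2 and 3, and -0.44, -0.62 and -0.61 for numbers 4, 5 and 6. In numbers 1, 3 and 4 all 18 genes were lower, and in each of the other numbers 17 were. For CNTF minus control the medians were -0.31, -0.54 and -0.80 for numbers 1, 2 and 3, and 0.03, -0.20 and -0.19 for numbers 4, 5 and 6. For BMP minus control, in the order of the numbers, the medians of the fatty acid arm were -0.48, -0.89, -0.92, -0.26, -0.19 and -0.28. Those of the 15 oligodendrocyte markers were -1.70, -1.71, -2.18, -1.51, -1.17 and -0.87. Those of the 10 precursor markers were -2.04, -1.32, -1.40, -0.98, -0.90 and -0.52. The larger difference in numbers 1, 2 and 3 was thus not particular to the sterol arm. The labels do not say what the numbers stand for.

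**Figure D3:**
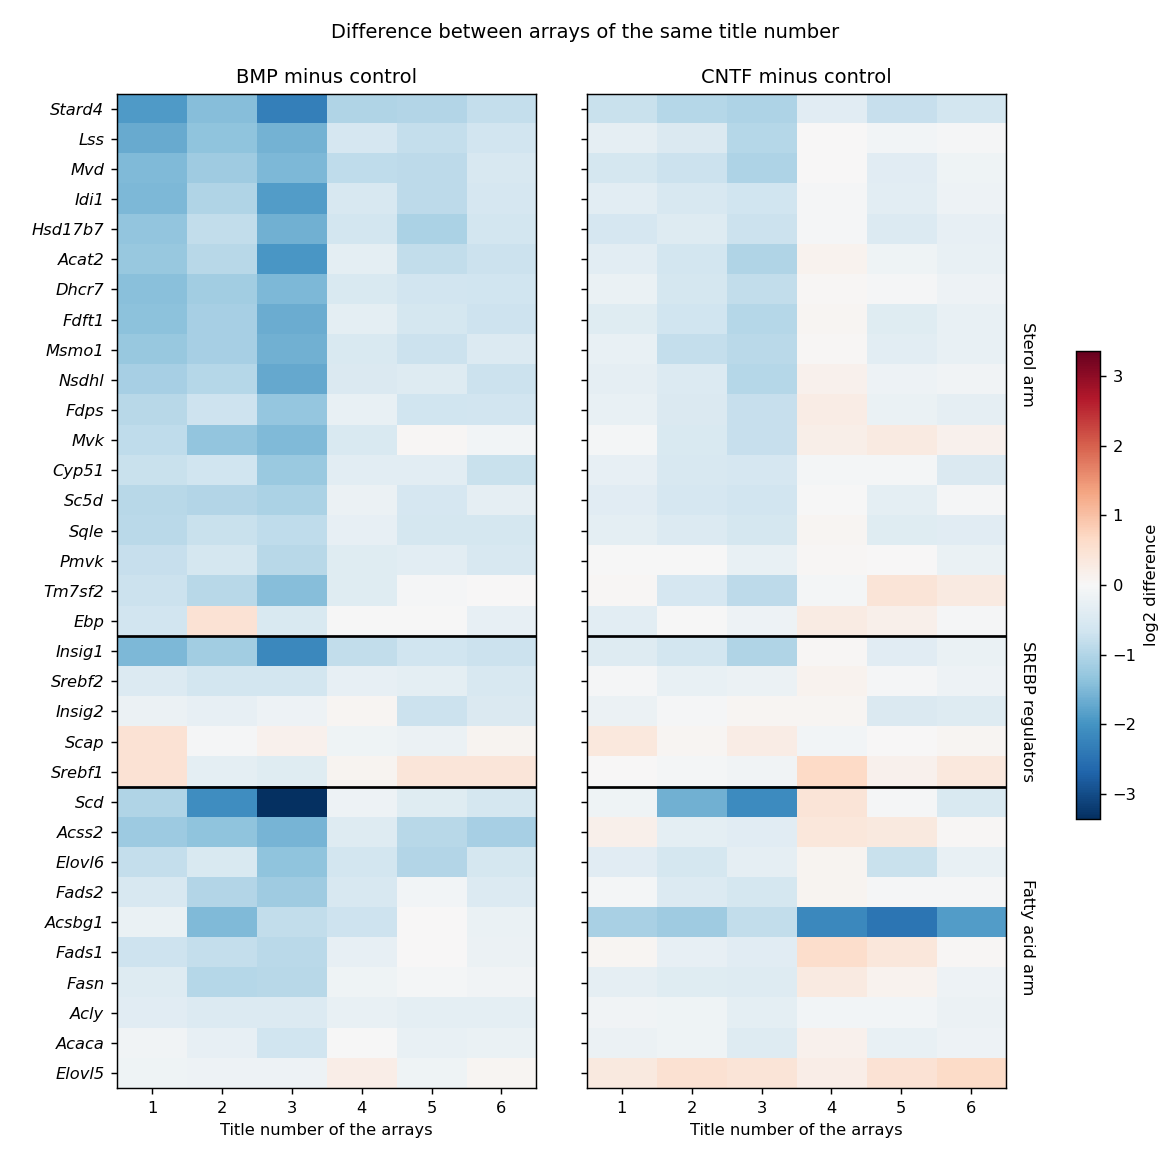
Difference between arrays of the same title number on the log2 scale (colour, blue for lower than control) for each of the 33 genes (vertical) and numbers 1 to 6 (horizontal), with BMP on the left and CNTF on the right. The sterol arm is bluest in numbers 1, 2 and 3 of BMP, where its medians were -1.20, -0.97 and -1.51, and Acsbg1 stands out with CNTF.

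The sterol genes also varied together from array to array. After each group's mean had been taken away, the deviations of a gene over the 18 arrays were correlated with the mean of the other sterol genes, given here as a description in which arrays of 1 title number share deviations. Pearson's r was highest for Msmo1 (0.968), Fdft1 (0.966) and Dhcr7 (0.942), and lowest within the sterol arm for Sc5d (0.542), Sqle (0.628) and Ebp (0.631). Among regulators it was 0.941 for Insig1, 0.471 for Srebf2, -0.0652 for Insig2, -0.100 for Srebf1 and -0.278 for Scap. In the fatty acid arm it ran from 0.288 for Acsbg1 and 0.317 for Fasn to 0.852 for Scd. Outside the list, the 5 genes most like the mean of the sterol arm, among 9059 named genes with a mean no lower than the table's median, were Colgalt2 (0.957), Tlcd1 (0.925), Pabir2 (0.893), Acsl4 (0.863) and Ciao2a (0.860). Colgalt2, a collagen galactosyltransferase, fell with BMP by 1.52, Pabir2 by 1.09 and Acsl4 by 0.57 (limma adjusted p = 0.00235, 0.00161 and 0.0148). Tlcd1 and Ciao2a differed by -0.73 and -0.27 and did not pass (limma adjusted p = 0.194 and 0.091).

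Of 17 measured genes of sterol handling outside the synthesis pathway, 2 rose and 2 fell with BMP, and 13 were not called. Their median difference was 0.09, and 3.44% of all probe sets were called higher and 2.57% lower. Those that rose were the cholesterol exporters Abca1 (1.26 ± 0.30, limma adjusted p = 0.0148) and Abcg1 (0.74 ± 0.20, 0.0364). Those that fell were Scarb1, the receptor for high density lipoprotein (-1.28 ± 0.30, 0.0141), and Osbp, an oxysterol-binding transfer protein (-0.23 ± 0.06, 0.0377). With CNTF 0 of 17 passed by limma and 1 had an unadjusted p under 0.05. Abca1 differed by 0.96 ± 0.30 (limma adjusted p = 0.123), Osbp by -0.11 and Apoe, the main lipid carrier of the central nervous system, by -0.64 ± 0.39 (0.581 and 0.611).

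Other fatty acid genes fell with BMP in 6 of 22 cases, with 0 rises, while 2.57% of all probe sets were called lower. Acsl3, an acyl-CoA synthetase of lipid droplets and endoplasmic reticulum, fell by 1.18 ± 0.16 (limma adjusted p = 0.000509), and Acsl4 and Acsl6 of the same family by 0.57 ± 0.14 and 0.79 ± 0.18. Fa2h, which makes the hydroxylated fatty acids of myelin, fell 2.83-fold (limma adjusted p = 0.0113), and the other falls were those of Slc25a1, the mitochondrial citrate carrier, and of the desaturase Scd2. With CNTF 1 of 22 passed, a rise of the glycerol-3-phosphate acyltransferase Gpam (1.04 ± 0.23, limma adjusted p = 0.0158), while Hacd3 differed by -0.28 and Acsl3 by -0.36 (0.131 and 0.392). Of 16 measured genes of fatty acid oxidation, 4 rose with BMP and 0 fell, while 3.44% of all probe sets were called higher. They were Acadl, the long chain acyl-CoA dehydrogenase (0.80 ± 0.13, limma adjusted p = 0.0012), Eci1, an enoyl-CoA isomerase (0.56 ± 0.10, 0.00206), and the carnitine palmitoyltransferases Cpt1a (0.56 ± 0.14, 0.0222) and Cpt2 (0.49 ± 0.13, 0.0249). With CNTF 0 of 16 passed by limma, and 1 had an unadjusted p under 0.05. Cpt2 was highest there at 0.42 ± 0.13, ahead of Acadl at 0.18, and Cpt1a differed by -0.27 (limma adjusted p = 0.0973, 0.71 and 0.498).

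Markers of oligodendrocytes and their precursors moved with the BMP result. Of 15 oligodendrocyte markers 8 fell, and of 10 precursor markers 8 fell, with 0 rises in both, while 2.57% of all probe sets were called lower. Mbp was among those not called, and 5 of the 15 had control means below the table's median. Above control were 1 of the 15, at an unadjusted limma p under 0.05 and in all 6 pairs, and 2 of the 10, 1 of them in all 6 pairs. Gal3st1, which makes the myelin lipid sulfatide, fell by 2.07 ± 0.35, and the precursor receptor Pdgfra by 1.80 ± 0.31 (limma adjusted p = 0.00146 and 0.00162). The summed intensity of the 15 oligodendrocyte markers was 106173 to 310431 in controls, 26929.7 to 149468 with BMP and 135697 to 348468 with CNTF. For the 10 precursor markers it was 176680 to 236928, 60377 to 169184 and 159574 to 227402. The sum of the 18 sterol genes was 249736 to 323072 in controls, 114734 to 212688 with BMP and 184402 to 272234 with CNTF. With CNTF, 0 oligodendrocyte markers passed by limma, with 0 at an unadjusted p under 0.05, and 10 of 15 differences were above 0. Of the 10 precursor markers 1 rose with CNTF, but 6 were lower than control in all 6 pairs, against 7.31% of all probe sets, and the median difference was -0.24. The part of these cells in the fall of the sterol and fatty acid genes was not tested.

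**Figure D4:**
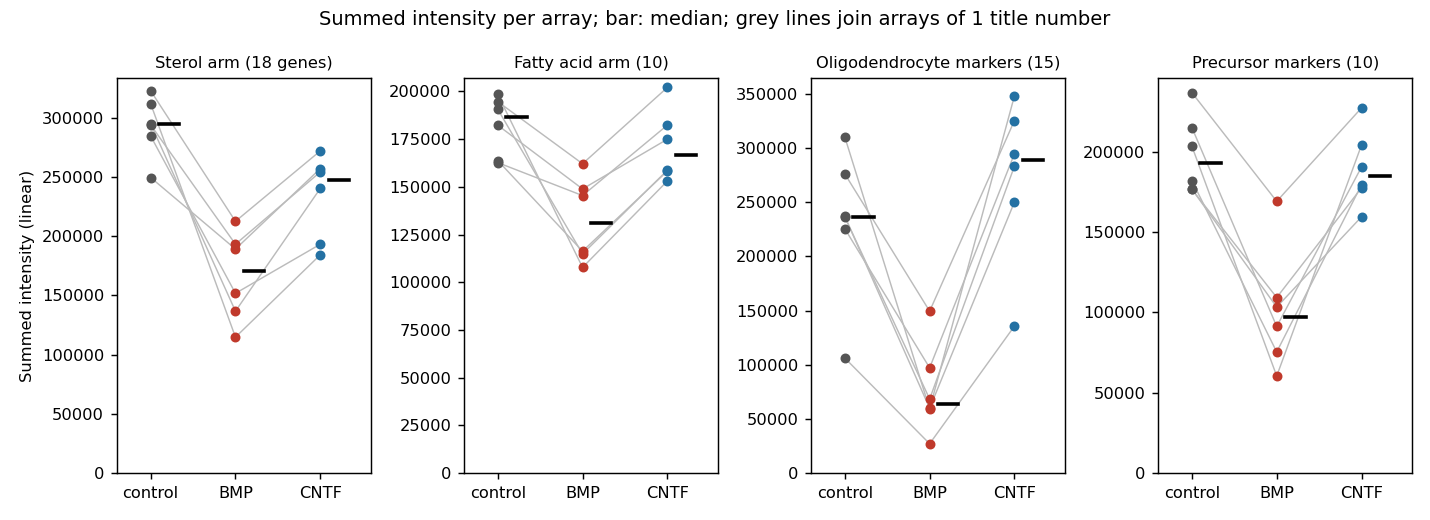
Summed linear intensity per array (y axes, each panel from 0) of the sterol arm, the fatty acid arm, the oligodendrocyte markers and the precursor markers in the 3 groups; grey lines join arrays of the same title number and black bars are medians. In each panel the BMP array is the lowest of its title number; the CNTF median of the sterol arm (247473) lies between those of BMP and control, and that of the oligodendrocyte markers (289263) lies above both.

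The other marker lists had fewer calls, or calls the other way. Of 11 fibroblast and smooth muscle markers 2 rose with BMP, Col1a2 and Postn. Their summed intensity was 4802 to 15242 in controls and 15419.8 to 102092 with BMP, where arrays 1, 2 and 3 had 52189 to 102092 and arrays 4, 5 and 6 had 15419.8 to 28067. In the same BMP arrays the sterol sums were 114734 to 151819 for numbers 1, 2 and 3 and 189241 to 212688 for numbers 4, 5 and 6. Of 12 neuronal markers 2 rose, of 11 astrocyte markers 1 rose (Aqp4), of 7 endothelial markers 1 rose, and 0 of 10 microglial and 0 of 7 Schwann cell markers passed by limma. Of all probe sets, 3.44% were called higher with BMP, so a single call in a short list says little about that list. At an unadjusted p under 0.05 there were 0 microglial and 3 Schwann cell markers, beside 18.6% of all probe sets. Summed astrocyte markers were 296237 to 397265 in controls, 294231 to 420317 with BMP and 364827 to 471162 with CNTF. With CNTF the calls among all 8 marker lists were rises of Gfap (astrocyte), Cd9 (precursor) and Pmp2 (Schwann cell), while 1.58% of all probe sets were called higher. The part of these markers in the lipid results was not tested either.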

How the data were processed

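Total RNA of 18 rat spinal cord samples was hybridised to single-channel Affymetrix arrays, 6 per group. The deposited values were linear probe set intensities, and their summary method is not given in the sources used here. With 2% of values trimmed at each end, array means were 2500.7 to 2500.8, and array medians were 666.5 to 817.2. For arrays, their number limits the precision.

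The 57 array control probe sets were left out. The analysed value was log2(intensity + 116.655). The constant was set at the 20th percentile of all values, and it understates changes of dim genes. Limma 3.58.1 in R 4.3.3 (group means, eBayes with an intensity trend) was fitted to all 18 arrays, with Benjamini-Hochberg adjustment over 31042 probe sets and two-sided tests. The fit was also run on simulated data with independent arrays, which lack the deviations that same-numbered arrays share. Symbols came from the platform annotation: 20826 probe sets had 1, 436 several and 9780 none.

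Deviations from group means of same-numbered arrays correlated at 0.122 to 0.491 in all 18 pairs. Such arrays thus shared part of their deviations, though correlations between differently numbered arrays were not listed beside these. A fit with the number as a block was an alternative. Others were a constant of 32, quantile normalization, leaving out dim probe sets, no intensity trend, 2-group fits, the mean of a gene's probe sets, and leaving out arrays.

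The genes and lists were chosen with earlier results of these data known. Values were given in full for the 5 genes per synthesis arm with the smallest adjusted p in BMP against control, the regulators, up to 6 genes called in each comparison with CNTF, and genes whose probe sets disagreed. From each other pathway list the 3 genes with the smallest adjusted p per comparison with control were named. Further called genes, further members given in full and marker examples were named after their values were seen. Promoters came from RefSeq (GRCr8).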

Additional observations from a re-analysis of the deposited data

Results flagged for a closer look

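In each group of 6 arrays, the highest and the lowest log2 value of every gene on the list was set against the rest by Dixon's criterion, the gap to the nearest array over the whole range. Of 99 groups, 7 held such an array, where chance alone gives about 1 in 20.

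Control array 4 was low for Msmo1 at 14.60, the others lying at 14.91 to 15.06, for Insig1 at 14.20 (others 14.55 to 14.72) and for Fads1 at 14.04 (others 14.46 to 14.66). Control array 5 was high for Sqle at 14.68 (others 14.30 to 14.44) and for Elovl6 at 13.86 (others 13.39 to 13.55). Control array 6 was high for Cyp51 at 15.85 (others 15.47 to 15.60). BMP array 3 was low for Elovl6 at 12.12 (others 12.68 to 12.95). Without any 1 of these arrays Msmo1, Insig1, Sqle, Cyp51 and Elovl6 were still called lower with BMP. Fads1 kept its call without control array 4, the array flagged for it. Its call was lost without control array 5 or 6 or BMP array 3, which were flagged for other genes.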

How the results depend on the processing

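In BMP against control, the sterol arm kept 15 to 17 calls and the fatty acid arm 4 to 8 in every alternative that was run, left-out arrays and numbers included. With the title number as a replicate block, the counts were 3 regulators and 5176 probe sets for BMP against control. They were 5 sterol genes, 3 fatty acid genes and 2349 probe sets for CNTF against control, and 16 sterol genes, 2 regulators, 7 fatty acid genes and 4686 probe sets for BMP against CNTF. The block made 22 further calls among 99 differences of single genes and ended none. In CNTF against control, 2 fatty acid genes (Acsbg1 and Elovl5) were called with quantile normalization, without dim probe sets, with only the 2 groups in the fit and with the mean of all probe sets. In BMP against CNTF, the sterol count was 5 without an intensity trend and 3 with only the 2 groups in the fit, where 0 regulators were called. The mean of all probe sets turned the small CNTF differences of Mvk to 0.090 and of Srebf2 to 0.019.

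Leaving out arrays or numbers gave 1 to 2 regulators and 740 to 2097 probe sets in BMP against control, 0 to 2 fatty acid genes and 366 to 795 probe sets in CNTF against control, and 1 to 12 sterol genes, 0 to 1 regulators, 2 to 5 fatty acid genes and 1111 to 1985 probe sets in BMP against CNTF. The title numbers whose removal moved these probe set counts by over 1.5 times were 2 and 3 for BMP against control (740 and 1008), 2, 3, 5 and 6 for CNTF against control (389, 420, 366 and 406) and 2, 3 and 5 for BMP against CNTF (1111, 1214 and 1190). Differences near 0 changed sign there and never passed. With CNTF against control they ranged from -0.21 to 0.0094 for Mvk, -0.24 to 0.024 for Tm7sf2, -0.13 to 0.085 for Ebp, -0.18 to 0.0020 for Srebf2, -0.10 to 0.12 for Acss2 and -0.040 to 0.15 for Fads1. Scap ranged from -0.046 to 0.12 with BMP against control and Srebf1 from -0.17 to 0.037 with BMP against CNTF. The cause of these shifts was not tested. Differences of dim genes are understated by the added constant, and a difference in time between control and treated arrays cannot be told apart from the treatments.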
